A study of Homo sapiens with 2 samples.

Results

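The nuclear genes for subunits of the mitochondrial respiratory chain and the ATP synthase were compared between a CD2-positive and a CD2-negative subclone of HMC1, an established human mast cell leukaemia line. The set holds 59 genes, of which 54 are among the 19775 genes with a probe set annotated to them alone. It was chosen by gene symbol, current or former: 28 genes of complex I, 4 of complex II, 7 of complex III, 10 of complex IV and 10 of the ATP synthase. Both subclones had been sorted from HMC1 cells with an antibody against CD2, one carrying CD2 at the surface and the other lacking it. The labels name no further treatment, and they do not say whether a subclone grew from a single cell. Total RNA of each was hybridised to 1 Affymetrix U133 Plus 2.0 array. With 1 array per subclone there is no spread between replicates, and no difference below carries a test or an error between cultures. The array of the CD2-positive subclone gave 219 for CD2 and the other array 13, which follows the labels. Of the 10 mast cell markers checked, 9 had a probe set and 8 lay above the floor described below, with KIT at 1373 against 1328 and the tryptase gene TPSAB1 at 4806 against 3142. All 8 read higher in the CD2-positive subclone, as did 1494 of the 3564 genes above that floor. The median log2 difference of the 8 (CD2-positive minus CD2-negative) was 0.60. The mast cell protease gene CPA3 (1220 against 207) and HPGDS (187 against 80) differed more than 2-fold, and the IgE receptor gene FCER1A was below the floor at 27 and 8. The part of mast cell marker levels in the differences below was not tested.

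The respiratory chain passes electrons from NADH (complex I) or succinate (complex II) through ubiquinone to complex III, cytochrome c and complex IV, where oxygen is reduced. Complexes I, III and IV pump protons across the inner mitochondrial membrane, and the ATP synthase uses the return flow of protons to make ATP. Except for complex II, which is wholly nuclear-encoded, these complexes join subunits from nuclear genes with a small number encoded by mitochondrial DNA. Nuclear genes of this kind are known for promoters that bind NRF-1, ETS factors such as GABP, and YY1.

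Promoter stretches are printed for 4 of the 5 subunits with the largest differences below (NDUFA1, COX7B, ATP5F1A and SDHD), for the subunit with the most positive difference (ATP5MC1), and for NDUFA8 and ATP5F1C, which like SDHD hold the NRF-1 letters in both orientations at one place. Each runs from 150 bases before to 30 bases after the annotated start in RefSeq, build GRCh38.p14, 5′ to 3′ on the strand of the gene. Capitals mark the letters GCATGCGC (NRF-1), CCGGAAG (ETS) and AAGATGGC (YY1) on either strand, and where the NRF-1 letters overlap with themselves on the opposite strand the capitals run over both. For ATP5F1A, which has 2 annotated starts in the table, the one with a match is shown.
NDUFA1 (chrX:119871682-119871861, plus strand): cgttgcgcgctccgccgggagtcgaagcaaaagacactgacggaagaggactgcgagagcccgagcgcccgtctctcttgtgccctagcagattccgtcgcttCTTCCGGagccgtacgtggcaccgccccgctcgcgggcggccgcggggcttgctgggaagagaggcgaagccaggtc
COX7B (chrX:77899318-77899497, plus strand): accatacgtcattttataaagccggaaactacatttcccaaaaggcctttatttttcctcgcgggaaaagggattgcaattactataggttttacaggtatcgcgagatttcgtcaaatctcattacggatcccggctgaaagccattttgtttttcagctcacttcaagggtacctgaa
ATP5F1A (chr18:46098267-46098446, minus strand): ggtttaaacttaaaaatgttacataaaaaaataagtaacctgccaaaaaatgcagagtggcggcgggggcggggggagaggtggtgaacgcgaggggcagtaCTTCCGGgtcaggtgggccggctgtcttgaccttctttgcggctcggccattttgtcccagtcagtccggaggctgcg
SDHD (chr11:112086723-112086902, plus strand): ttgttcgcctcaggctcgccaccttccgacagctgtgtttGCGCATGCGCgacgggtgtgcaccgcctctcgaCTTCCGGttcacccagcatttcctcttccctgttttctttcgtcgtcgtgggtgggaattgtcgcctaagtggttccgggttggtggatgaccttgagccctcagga
ATP5MC1 (chr17:48892637-48892816, plus strand): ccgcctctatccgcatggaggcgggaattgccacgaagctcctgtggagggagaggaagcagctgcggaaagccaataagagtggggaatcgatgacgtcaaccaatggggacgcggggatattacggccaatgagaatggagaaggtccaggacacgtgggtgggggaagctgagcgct
NDUFA8 (chr9:122159750-122159929, minus strand): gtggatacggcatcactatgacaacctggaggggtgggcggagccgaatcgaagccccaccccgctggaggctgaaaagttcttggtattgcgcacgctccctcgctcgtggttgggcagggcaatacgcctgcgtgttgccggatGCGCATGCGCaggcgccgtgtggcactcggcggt
ATP5F1C (chr10:7788027-7788206, plus strand): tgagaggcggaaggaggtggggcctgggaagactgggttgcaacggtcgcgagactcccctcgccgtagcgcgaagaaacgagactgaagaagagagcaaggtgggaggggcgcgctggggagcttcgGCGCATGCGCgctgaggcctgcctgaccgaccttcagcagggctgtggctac

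Promoter windows from 250 bases before to 50 after the start were available here for 49 of the 59 genes. They were available for 15843 protein-coding genes in all. The NRF-1 letters GCATGCGC lay in the windows of 10 subunit genes (20.4%) against 4.89% of protein-coding genes. The ETS letters CCGGAAG lay in 16 (32.7%) against 16.5%, and the YY1 letters AAGATGGC in 12 (24.5%) against 4.66%. The GC box GGGCGG, at 65.3% against 64.3%, and TATAAA, at 12.2% against 12.4%, were about as frequent as elsewhere. These counts describe letters within a window and not bound sites. Among the subunits that differed most, SDHC had no window available here. The ETS letters lay in those of SDHD, NDUFA1 and ATP5F1A. SDHD also held the NRF-1 letters, and COX7B held none of the 3 kinds marked.

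Of the 59 genes, 54 had a probe set annotated to a single gene. NDUFS5, NDUFS8 and UQCRH were represented by probe sets annotated to several genes, and SDHB and UQCRFS1 were not analysed here. Where a gene had several probe sets, the one with the highest mean log2 intensity stood for it. The floor for a comparison was 64 units (log2 of 6) on at least 1 array, and 51 of the 54 genes reached it. NDUFA7, at 55 on both arrays, NDUFB7, at 24 and 25, and NDUFS1, at 49 and 59, did not. A gene near the floor can reach it only on the array where it reads higher, as NDUFS7 did (63 and 73). Intensities of different probe sets are not on a common scale, so only the difference between the arrays is read for each gene. Everywhere below the value of the CD2-positive array is given first, and a log2 difference is CD2-positive minus CD2-negative.

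Respiratory chain and ATP synthase genes were close to equal in the 2 subclones, with a small lean towards lower values in the CD2-positive one. None of the 51 subunits differed 2-fold, a size that 1.96% of the 3564 genes compared reached. A smaller size rule asked for a log2 difference of at least 0.32, at which the higher array reads 25% above the lower one. By it 5 subunits (9.8%) were lower, NDUFA1, COX7B, ATP5F1A, SDHC and SDHD, where 16.3% of all genes compared were. None was higher by it, where 12% of all genes compared were. The lean lay in the small differences: 39 of the 51 were below 0 (76.5%), against 55.7% of all genes compared. Their median was -0.11, with the middle 50% between -0.22 and -0.02, beside a median of -0.05 and a middle 50% between -0.23 and 0.14 for all genes compared. Over genes of mean log2 7 to 10, 25 of 32 subunits were below 0, where 54.7% of the 1524 genes at that level were.

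**Figure D1:**
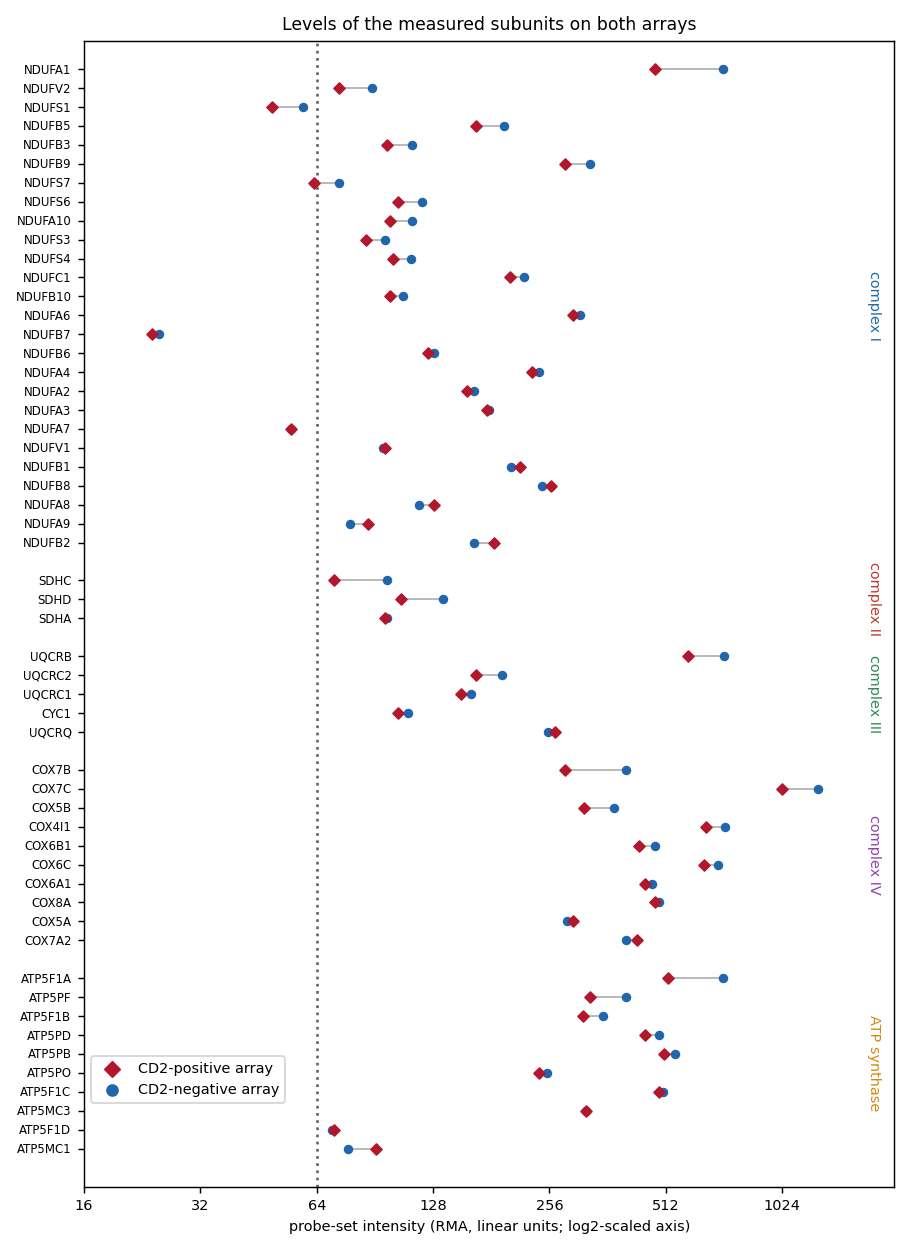
Probe-set intensity of the 54 measured subunits on the CD2-positive (red diamonds) and CD2-negative (blue circles) array, on a log2-scaled axis, grouped by complex and ordered by difference; 1 array each, no error. The dotted line is the floor of 64, and most red diamonds lie just left of their blue circle; levels are not comparable between rows.

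The direction of so small a lean depends on the scale. The hybridisation controls, bacterial and phage transcripts added to each sample, had 18 probe sets with a median log2 difference of -0.18. Single control probe sets ran from -0.40 to -0.04, so the size of the shift is itself uncertain. Centring on them moved the median of all genes compared from -0.05 to 0.14 and the median of the subunits from -0.11 to 0.07, and then 17 of 51 subunits were below 0, against 30.78% of all genes compared. Relative to the median of all genes compared, which no such shift changes, the subunits had a median of -0.07, and 35 of 51 lay below it. The members past 0.32 changed too: centred on the controls, NDUFA1 and COX7B were still lower (2 of 51, where 5.75% of all genes compared were), while ATP5F1A, SDHC and SDHD were not, and ATP5MC1, NDUFB2 and NDUFA9 were higher (3 of 51, where 25.1% were).

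Among subunits above the floor, the 12 with the ETS letters had a median log2 difference of -0.16 and the 30 without -0.06. The 9 with the NRF-1 letters had a median of -0.21 and the 33 without -0.08. The 10 with the YY1 letters had a median of -0.08 and the 32 without -0.11. For the GC box the medians were -0.12 (27 with) and -0.02 (15 without), and for TATAAA -0.23 (5 with) and -0.08 (37 without). The gaps for the ETS and NRF-1 letters were about the size of those for the GC box and TATAAA. The part of any of these letters in the differences was not tested. All these medians move up by 0.18 when centred on the hybridisation controls.

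**Figure D2:**
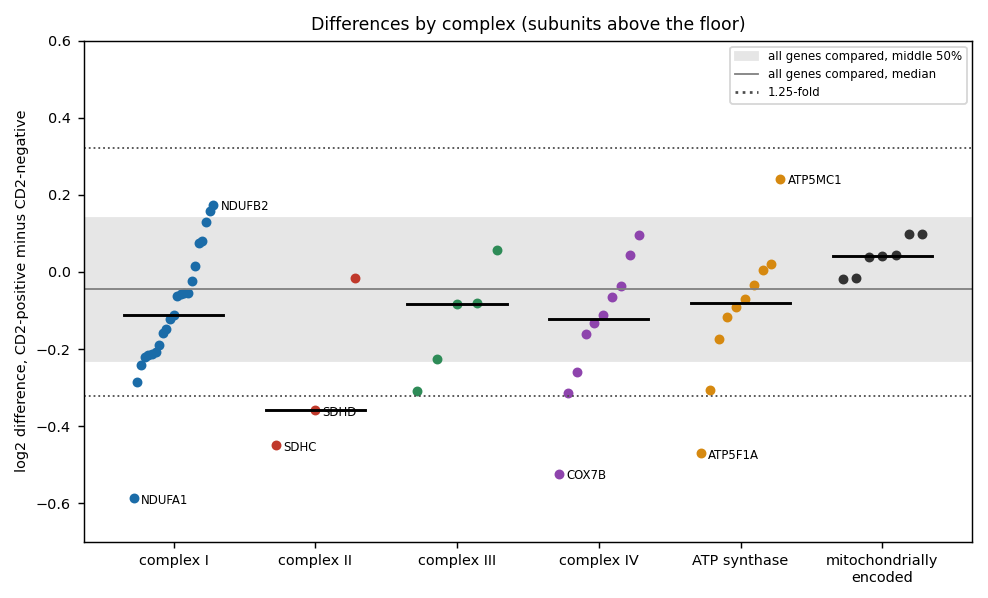
Log2 differences (CD2-positive minus CD2-negative) of the 51 subunits above the floor, by complex, and of 7 mitochondrially encoded subunits; each point is 1 gene, black bars are medians, the grey band is the middle 50% of all genes compared and the dotted lines mark the smaller size rule (0.32). The medians of the 5 complexes lie between -0.36 and -0.08 and turn positive, except for complex II, when centred on the hybridisation controls.

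Complex I, which oxidises NADH, had 23 subunits above the floor. Of these 17 were below and 6 above 0, where 55.7% of all genes compared were below 0. The median of the 23 was -0.11 (0.07 when centred on the hybridisation controls). So centred, NDUFA1, NDUFA10, NDUFB3, NDUFB5, NDUFB9, NDUFS6, NDUFS7 and NDUFV2 were below 0, where 30.78% of all genes compared were. Among the core subunits, which carry the flavin and the iron-sulphur centres, NDUFV1, the NADH-binding subunit, read 96 and 95. NDUFV2, an iron-sulphur protein that partners it, read 73 and 89 (-0.29). NDUFS3 read 86 and 96 (-0.16) and NDUFS7, which carries an iron-sulphur centre near the ubiquinone site, read 63 and 73 (-0.21). The 4 core subunits thus went from 0.02 down to -0.29.

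The accessory subunits of complex I surround that core and are needed for its assembly and stability. NDUFA1, a small subunit of the membrane arm, read 480 and 721, the most negative difference of all subunits (-0.59). The other 18 accessory subunits above the floor lay between -0.24 and 0.17. In the NDUFB group of the membrane arm, NDUFB5 read 165 and 195 (-0.24), NDUFB3 97 and 113 (-0.22) and NDUFB9 281 and 326 (-0.21). NDUFB2 went the other way, at 184 and 163 (0.17), and so did NDUFB8 at 259 and 245 (0.08) and NDUFB1 at 215 and 204 (0.08). NDUFB10 (-0.11) and NDUFB6 (-0.06) lay between them. The NDUFB subunits of the one membrane arm therefore covered both signs.

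In the NDUFA group, NDUFA9 read 87 and 78 (0.16) and NDUFA8 129 and 118 (0.13), while NDUFA10 read 99 and 113 (-0.19). NDUFA2 (-0.05), NDUFA3 (-0.02) and NDUFA6 (-0.06) differed by at most 1.04-fold. NDUFA4, named as a complex I gene but later assigned to complex IV, read 231 and 240 (-0.06), and counting it there gave complex IV a median of -0.11. NDUFS4 and NDUFS6, accessory subunits of the arm that faces the matrix, read 101 and 112 (-0.15) and 104 and 120 (-0.21). NDUFC1 read 202 and 220 (-0.12). Apart from NDUFA1, no complex I subunit reached a difference of 0.32.

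Complex II, succinate dehydrogenase, also works in the citric acid cycle. Its catalytic flavoprotein SDHA read 96 and 97 (-0.015). The membrane anchors, which hold the ubiquinone site, were both lower past 0.32. SDHC read 71 and 97, 1.37-fold lower (-0.45). SDHD read 106 and 136, 1.28-fold lower (-0.36). When centred on the hybridisation controls the differences were -0.27 and -0.18, short of 0.32. SDHA and both anchors have named pseudogenes in RefSeq (4 for SDHA, 5 for SDHC and 7 for SDHD), whose transcripts such probe sets could not be shown here to leave out. The limit is not particular to complex II: 34 of the 51 subunits above the floor have a named pseudogene.

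Complex III, the cytochrome bc1 complex, had 5 subunits above the floor. Of these 4 were below and 1 above 0, where 55.7% of all genes compared were below 0. The median of the 5 was -0.08 (0.10 when centred on the hybridisation controls). So centred, UQCRB and UQCRC2 were below 0, where 30.78% of all genes compared were. UQCRB, a small subunit near the ubiquinone site, read 584 and 723, 1.24-fold lower (-0.31). The core proteins UQCRC1 and UQCRC2 read 151 and 160 (-0.08) and 165 and 193 (-0.23). CYC1, which is cytochrome c1, read 104 and 110 (-0.08). UQCRQ read 264 and 254 (0.06). UQCRB came nearest to a difference of 0.32 among them and did not reach it.

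Complex IV, cytochrome c oxidase, takes its catalytic core from mitochondrial DNA, and its 10 nuclear subunits here surround that core. Of them 8 were below and 2 above 0, where 55.7% of all genes compared were below 0. The median of the 10 was -0.12 (0.06 when centred on the hybridisation controls). So centred, only COX5B, COX7B and COX7C were below 0, where 30.78% of all genes compared were. COX7B read 281 and 404, 1.44-fold lower (-0.52). COX7C read 1022 and 1271, 1.24-fold lower (-0.31). COX5B read 314 and 376 (-0.26), and its partner in name, COX5A, read 294 and 285 (0.04). COX4I1, the subunit through which ATP is known to regulate the enzyme, read 651 and 728 (-0.16). COX6B1 read 437 and 479 (-0.13), COX6C 645 and 697 (-0.11), COX6A1 452 and 473 (-0.07) and COX8A 479 and 491 (-0.04). COX7A2 read 431 and 403 (0.10). Of the 10 only COX7B was past 0.32.

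The ATP synthase had 10 subunits above the floor, 7 below and 3 above 0, where 55.7% of all genes compared were below 0. The median of the 10 was -0.08 (0.10 when centred on the hybridisation controls). So centred, only ATP5F1A and ATP5PF were below 0, where 30.78% of all genes compared were. In the catalytic F1 head, the alpha subunit gene ATP5F1A read 519 and 719, 1.39-fold lower (-0.47). The beta subunit gene ATP5F1B, whose protein forms the catalytic sites at its boundary with alpha, read 312 and 352 (-0.17). The stalk genes ATP5F1C (gamma) and ATP5F1D (delta) read 493 and 505 (-0.03) and 71 and 70 (0.02). The alpha subunit gene was thus the only 1 of the 4 past 0.32.

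All 4 subunits of the peripheral stalk, which holds the head still against the turning rotor, were below 0, and 1 of them, ATP5PF, when centred on the hybridisation controls. ATP5PF read 326 and 403 (-0.31), ATP5PD 453 and 491 (-0.12), ATP5PB 507 and 540 (-0.09) and ATP5PO, the subunit known as OSCP, 240 and 252 (-0.07). Of the c-ring genes, the 2 in the set had a representative probe set above 0. ATP5MC1 read 91 and 77, 1.18-fold higher, with the most positive difference of all subunits (0.24). ATP5MC3 read 319 and 318, and its second probe set 259 and 282 (-0.12). ATP5MC2, a c-ring gene outside the set, read 275 and 289 (-0.07). The c-ring genes encode the same mature c subunit, with different import sequences.

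For 10 subunits more than 1 probe set lay above the floor. In 7 of them all probe sets gave negative differences: SDHC, COX7C, UQCRB, COX5B, UQCRC2, COX4I1 and ATP5PO. When centred on the hybridisation controls this held for 3, SDHC, COX7C and UQCRB. The 4 probe sets of SDHC gave values from -0.61 to -0.27, the widest range among the 10, and the 3 of COX7C from -0.31 to -0.24. The SDHC probe set at -0.61 read 53 and 81, so it reached the floor only on the CD2-negative array, where it read higher. Without it the SDHC values ran from -0.45 to -0.27. In NDUFB8, ATP5MC3 and ATP5F1C the signs differed between probe sets. The median range over the probe sets of a subunit was 0.09. Over 937 genes with 2 such probe sets the standard deviation for 1 probe set was 0.13, a value for probe behaviour and not for cultures. NDUFA1, COX7B, ATP5F1A and SDHD had 1 probe set each above the floor.

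**Figure D3:**
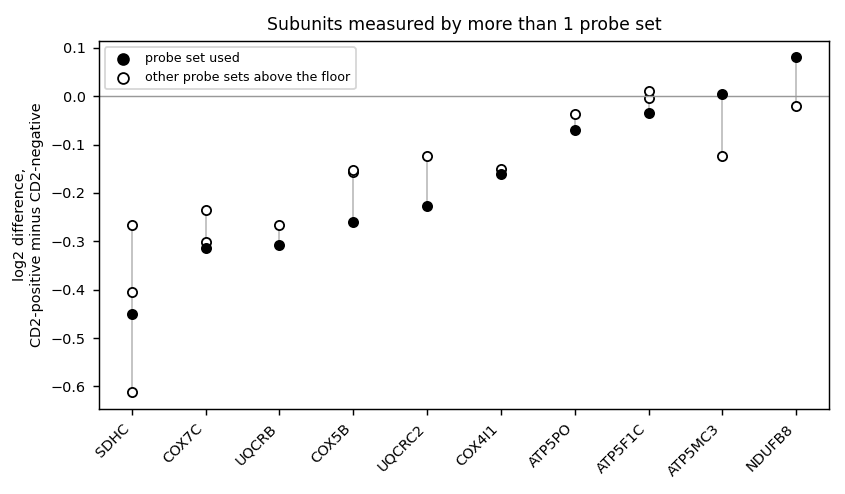
Log2 differences (CD2-positive minus CD2-negative) of every probe set above the floor for the 10 subunits with more than 1; filled circles are the probe sets used and lines span the range. SDHC covers -0.61 to -0.27, and its probe set at -0.61 reached the floor only on the CD2-negative array. The signs differ for ATP5F1C, ATP5MC3 and NDUFB8. Centring on the hybridisation controls would move all points up by 0.18.

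The most negative subunits lay among genes that were also lower in the CD2-positive subclone. For each subunit, the 10 nearest compared genes on either side of it along the chromosome were taken (fewer near a chromosome end). NDUFA1, on chromosome X, had 18 of 20 neighbours below 0, with a median of -0.44 beside its own -0.59. COX7B, also on chromosome X, had 18 of 20 below 0 and a median of -0.29. ATP5F1A, on chromosome 18, had 16 of 20 below 0, and their median of -0.45 was close to its own -0.47. NDUFB9, on chromosome 8, had neighbours with a median of -0.20 beside its own -0.21. These 4 were the only subunits above the floor with a neighbours' median of -0.2 or lower.

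SDHC on chromosome 1 and SDHD on chromosome 11 had neighbours with medians of -0.18 and -0.17 and were below them by 0.27 and 0.19. For COX7C the median was -0.01 and for COX5B 0.04, on chromosomes 5 and 2, and both subunits were below it by 0.30. SDHA, with neighbours at -0.1995, just above the limit of -0.2, was itself at -0.015. Across the 51 subunits, differences and neighbours' medians were related with a Pearson r of 0.53 and a Spearman rho of 0.32, and the Pearson r was 0.19 over the 47 subunits outside the 4 neighbourhoods. Across the 3557 compared genes with a position, r was 0.29. The points share the same 2 arrays, and neighbours of nearby genes overlap. Without the 4, the median of the remaining 47 subunits was -0.08, 35 of 47 were below 0 and 2 were lower past 0.32, SDHC and SDHD. Against its own neighbours' median, 38 of 51 subunits (74.51%) were lower, where 49.817% of all genes compared were. The part of the neighbourhood in each subunit's difference was not tested.

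**Figure D4:**
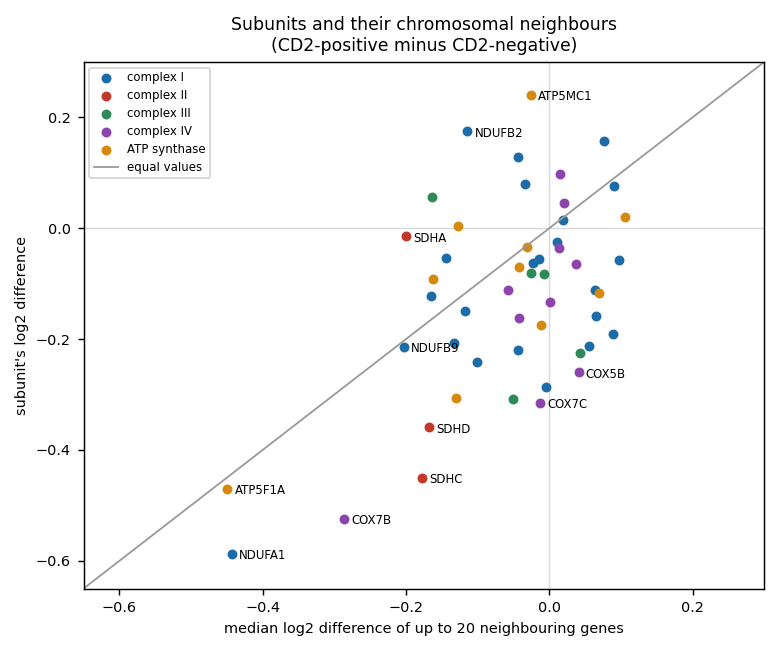
Log2 difference (CD2-positive minus CD2-negative) of each of the 51 subunits above the floor against the median of its up to 20 neighbouring compared genes; points are coloured by complex and the line marks equal values. NDUFA1, COX7B and ATP5F1A lie at the lower left with neighbours' medians of -0.29 or lower, and most other subunits lie below the line; centring on the hybridisation controls moves both axes by 0.18.

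Subunits encoded by mitochondrial DNA were nearly equal on the arrays. Of 13 such genes 7 had a named probe set, with 5 above and 2 below 0 (all 7 above when centred on the hybridisation controls). Of all genes compared 55.7% were below 0, and 30.78% when so centred. MT-CO1, the catalytic subunit of complex IV, read 4316 and 4034 (0.10), and MT-CO2, which receives electrons from cytochrome c, 4094 and 3988 (0.04). MT-CO3 read 102 and 99 (0.04). Of the complex I genes, MT-ND4 read 4731 and 4784 (-0.02), and by its second probe set 3574 and 3534 (0.02). MT-ND2 read 3084 and 3125 (-0.02) and MT-ND6 92 and 86 (0.10). MT-ATP6, the proton channel subunit of the ATP synthase, read 4149 and 4035 (0.04). Their median was 0.04, against -0.11 for the nuclear subunits, and both move by the same amount when centred on the hybridisation controls (0.22 and 0.07). For 5 of the 7 the level was near the top of the array, where 32 nuclear genes with a mean log2 of 11 or above had a median of -0.06. Copies of mitochondrial DNA in the nuclear genome are close in sequence, so the source of single signals is uncertain.

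Other nuclear subunits of the same complexes, outside the 59, gave small differences. Of 26 genes, 17 were above the floor, with 13 below 0, 2 above and 2 at 0 and a median of -0.06, where 55.7% of all genes compared were below 0. When centred on the hybridisation controls 5 of 17 were below 0, where 30.78% of all genes were, and the median was 0.12. COX7A2L, a factor that joins complexes III and IV into supercomplexes, was the only one past 0.32, at 102 and 133 (-0.38). NDUFB11, like NDUFA1 a complex I gene on chromosome X, read 113 and 101 (0.16), and its neighbours had a median of -0.01. It thus went the other way from NDUFA1 and COX7B. The 157 compared genes of chromosome X had a median of -0.33.

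Assembly factors, which build the complexes without being part of them, had 15 of 47 genes above the floor, 12 of them below 0, where 55.7% of all genes compared were, with a median of -0.17. When centred on the hybridisation controls 7 of 15 were below 0, where 30.78% of all genes were, and the median was 0.02. Lower past 0.32 were 4 (16.3% of all genes were): SURF1, a complex IV factor, at 53 and 79 (-0.58), COA6, which handles copper for complex IV, at 50 and 67 (-0.42), LRPPRC, which stabilises mitochondrial messenger RNAs, at 108 and 140 (-0.37), and COX14, named after its value was seen, at 54 and 68 (-0.33). The neighbours of COA6, on chromosome 1, were at -0.32. SURF1, COA6 and COX14 reached the floor only on the CD2-negative array, where they read higher. TTC19, a complex III factor, was 1.27-fold higher at 137 and 108 (0.34).

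Of the electron carriers and entry enzymes, 8 of 18 were above the floor, 4 below and 4 above 0, with a median of 0.01 and a mean of -0.10. Of all genes compared 55.7% were below 0. When centred on the hybridisation controls 2 of 8 were below 0, where 30.78% of all genes were. COQ8A, needed for ubiquinone synthesis, read 50 and 82 (-0.71) and AIFM1 62 and 87 (-0.49), on chromosomes 1 and X among neighbours at -0.39 and -0.53. COQ8A and AIFM1 reached the floor only on the CD2-negative array, where they read higher. Cytochrome c itself, CYCS, read 605 and 684 (-0.18). Adenine nucleotide and phosphate carriers and VDAC channels had 5 genes above the floor and a median of -0.11, with SLC25A5, an ADP/ATP carrier on chromosome X among neighbours at -0.48, at 529 and 667 (-0.33).

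Of the citric acid cycle and pyruvate dehydrogenase genes, 11 were above the floor, 6 below and 5 above 0. Their median was -0.06 and their mean 0.02, and 55.7% of all genes compared were below 0. When centred on the hybridisation controls 2 of 11 were below 0, where 30.78% of all genes were. IDH2, the NADP-dependent mitochondrial isocitrate dehydrogenase, was 1.63-fold higher at 127 and 78 (0.70), and OGDH, a subunit of the oxoglutarate dehydrogenase complex, 1.45-fold higher at 64 and 44 (0.54). IDH3B, of the NAD-dependent isocitrate dehydrogenase, read 61 and 79 (-0.37) on chromosome 20 among neighbours at -0.54, and its partner IDH3G 104 and 130 (-0.32) on chromosome X among neighbours at -0.41. When centred on the hybridisation controls they were at -0.19 and -0.14. OGDH reached the floor only on the CD2-positive array and IDH3B only on the CD2-negative one, in each case where the gene read higher.

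Regulators of mitochondrial biogenesis and genes of mitochondrial DNA upkeep were mostly dim: 3 of 18 were above the floor. TFB2M, a transcription factor of mitochondrial DNA, was 2.02-fold lower at 49 and 99 (-1.01), on chromosome 1 among neighbours at -0.36 (under 2-fold, at -0.83, when centred on the hybridisation controls). TFB2M reached the floor only on the CD2-negative array, where it read higher. SSBP1 read 233 and 265 (-0.19) and YY1 362 and 393 (-0.12). Of the other factors named for the promoter letters, both NRF1, at 9 and 8, and GABPA, at 18 and 24, were below the floor. TFAM, which packages mitochondrial DNA and takes part in starting its transcription, read 48 and 50. PPARGC1A, a coactivator of mitochondrial biogenesis, read 2 and 3. Of the genes of these other lists named above as lower past 0.32, only SURF1 (-0.39), COQ8A (-0.53) and TFB2M stayed so when centred on the hybridisation controls.

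**Figure D5:**
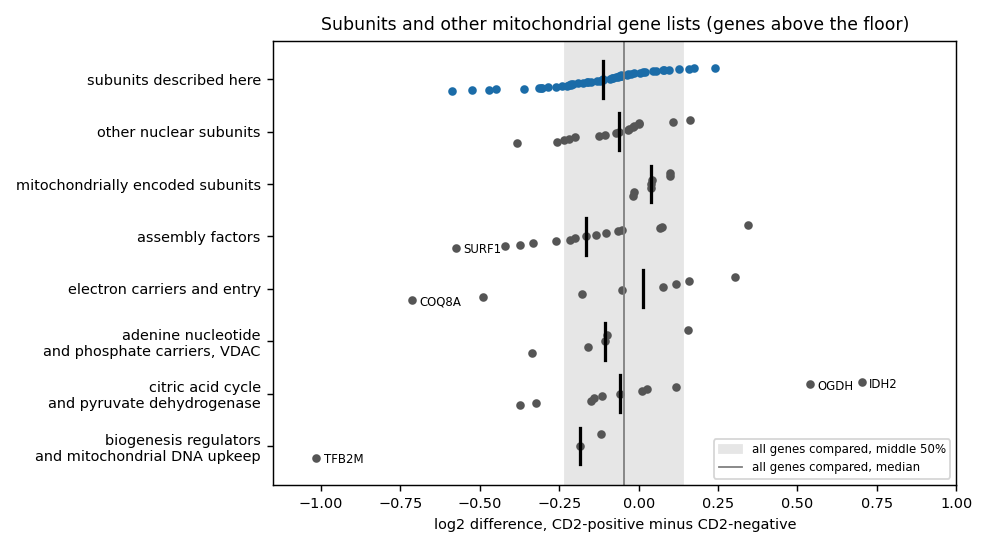
Log2 differences (CD2-positive minus CD2-negative) of the 51 subunits (blue) and of genes of 7 other mitochondrial lists (grey) above the floor; black bars are medians, the grey band and line are the middle 50% and the median of all genes compared. Medians run from -0.19 to 0.04, with TFB2M at -1.01 and IDH2 at 0.70 farthest out; centring on the hybridisation controls moves every point up by 0.18.

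Both arrays held 54675 probe sets, with summed intensities of 1860969 and 1875750. A sign of RNA integrity, the signal of 3' over 5' probe sets, was 1.38 and 1.59 for ACTB and 1.003 and 1.068 for GAPDH. Their part in the small lean of the subunits was not tested.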

How the data were processed

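The 2 arrays, 1 per subclone, had been deposited as intensity values in whole numbers on a linear scale. Per the submitters' processing notes the authors used RMA and Affymetrix Expression Console 1.1. How background was corrected is not stated. Rounding makes low values coarse, and quantile normalisation removes differences in total signal.

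Values were converted to log2. The platform annotation gave 41097 of 54675 probe sets 1 gene and 1801 several. Of the former, 41043 took current symbols from RefSeq GCF_000001405.40, which also ordered neighbouring genes. A gene took its brightest probe set by mean log2, with a floor of log2 6 and size rules of 2-fold and of 0.32 in log2. Members and lists were chosen with earlier results of these data known. All members may be named. From other lists the text names members past 0.32 (at most 4 a list by size, and COX14 besides), else the one farthest from 0, and every mitochondrially encoded subunit with a probe set. Any further gene was picked once its values had been seen. No test was made with 1 array per group, and the number of arrays limits the precision. The gene-level steps were tested on simulated data. The planted changes were larger than any subunit difference here, so that test does not cover differences as small as these. Python, pandas and statsmodels were used.

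Alternatives were floors of log2 5, 7 or none, averaging all probe sets, plain identifiers (no _s, _x or _a), centring on all genes or on hybridisation controls, lowess with a span of 0.3, a size rule of 1.5-fold, and leaving out subunits with a named pseudogene or on chromosome X. Leaving out subunits in shifted neighbourhoods was added after seeing the data.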

Additional observations from a re-analysis of the deposited data

How the results depend on the processing

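With 1 array per subclone no replicate could be left out. No paired analysis was possible because each group held 1 array. Centring on the hybridisation controls turned the median log2 difference of the subunits to 0.0704, of complex I to 0.0702, of complex III to 0.0987, of complex IV to 0.0601 and of the ATP synthase to 0.1016, moved that of complex II to -0.18, and left 17 subunits below 0, with 2 lower and 3 higher past 0.32 in place of 5 lower. Of all genes compared 30.78% were below 0 with that centring, 5.75% were lower past 0.32 and 25.1% higher. Without subunits that have a named pseudogene the ATP synthase median was 0.0125 over 2 genes. Then 13 of 17 subunits were below 0 and 1 was past 0.32, where 55.7% and 28.3% of all genes compared were. When all probe sets of a gene were averaged, 24 of 31 subunits were below 0 and 1 was past 0.32. Of all genes so averaged 53.28% were below 0 and 28.5% past 0.32. Complex II, in that setting only SDHA, had a median of -0.015. With plain identifiers 22 of 27 subunits were below 0 and 3 were past 0.32, where 54.33% and 29.1% of all genes compared were. In these settings, other than the centring, fewer subunits were compared. Past 0.32 were 3 without the subunits on chromosome X and 2 without shifted neighbourhoods, where 28.3% of all genes compared were. With the size rule of 1.5-fold, 1 subunit was past it. No subunit reached 2-fold in any setting run. The median of the subunits lay between -0.12 and -0.06 in every setting but the hybridisation controls. Of the single subunits, COX5B moved to -0.02 when averaged over its probe sets and ATP5MC3 to -0.12 with plain identifiers. The COX5B average took in a probe set far below the floor, at 14 and 10 (0.49). The COX5B probe sets above the floor lay between -0.26 and -0.15. Low values are limited by rounding to whole units.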
